A study of Mus musculus with 24 samples.

Results

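The comparison described here set the time difference of mouse liver transcripts in liver-specific Bmal1 knockouts (LKO) against the same difference in global knockouts (KO). It used 12 of the 24 RNA-seq libraries of the study, 3 for each combination of genotype and circadian time. Its value is the log2 fold change of CT14 over CT2 in LKO minus that in KO, so that a positive value is a larger rise at CT14 in LKO. It asks which differences between day and night are seen when BMAL1 is missing from the liver alone and not when it is missing from the whole body. The groups were LKO at CT14 and CT2 (Alb-Cre; Bmal1 f/f), KO at CT14 and CT2 (Bmal1-/-, from heterozygous parents on C57BL/6J), floxed controls without Cre at both times (F, Bmal1 f/f) and wild type at both times (WT, Bmal1+/+). CT2 lies early in the subjective day and CT14 early in the subjective night. The 12 F and WT libraries entered the shared estimate of the spread and served to choose genes with a time difference in livers that carry Bmal1.

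Alb-Cre is driven by the albumin promoter and acts in hepatocytes, so other cell types of an LKO liver can still carry Bmal1. LKO and KO came from different crosses, which means that the line, the cells that lost Bmal1 and the organs that lost it differ together and cannot be told apart in this contrast alone. The sources used here do not give age, sex, lighting or feeding. It is also unstated if each library of a group is its own mouse. If not, the p-values cover the spread of these samples alone, which may be technical. In bulk liver, fewer cells of a type and less RNA per cell cannot be told apart.

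BMAL1 pairs with CLOCK or NPAS2 and binds E-boxes, and this drives its own repressors, the PER and CRY proteins, and the nuclear receptors REV-ERB alpha and beta, which repress through RORE sites. Besides this cell-autonomous loop, the liver receives daily signals from the rest of the body. Feeding acts through insulin and nutrients, adrenal glucocorticoids act through their receptor, and body temperature acts through heat shock factor HSF1 and through cold-inducible RNA-binding proteins. In a liver knockout the clocks of the brain and other organs remain in place, whereas global Bmal1 knockout mice are known to lose behavioural rhythm in constant conditions.

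Total counts in the 12 LKO and KO libraries ran from 89908697 to 124397056. Bmal1 itself stood at 5.46 to 7.91 CPM (counts scaled to a common library size with TMM factors) in all 12, against means of 28.5 CPM in F and 31.9 CPM in WT at CT2, and its time difference did not pass the test in LKO (-0.39 ± 0.35, SE) or in KO (-0.06 ± 0.35). In the controls Bmal1 was lower at CT14 than at CT2, with time differences of -1.58 ± 0.35 in F and -2.45 ± 0.37 in WT. The knockout levels were thus set against the controls at CT2 alone. The defining hepatocyte markers Alb, Apoa1 and Hnf4a were abundant in each of the 12 libraries, and hepatocyte markers summed to 59184.9 CPM or more. Some libraries stood apart from their groups. The Y-linked Ddx3y was at 8.15 CPM in LKO CT2 replicate 3 and 9.61 CPM in KO CT2 replicate 1, against 28.5 to 39.7 CPM in the other 10. Spermatid markers summed to 23.97 and 20.7 CPM in KO CT14 replicate 1 and KO CT2 replicate 2, against 7.48 to 9.97 CPM in the other 4 KO libraries and 23.4 to 39.2 CPM in LKO. The summed level of 25 interferon-stimulated genes was 4007 CPM in replicate 3 of KO at CT14 and ranged over 382 to 985 CPM among the other 11. Neutrophil markers summed to 22.2 and 55.6 CPM in LKO CT2 replicates 1 and 2, against 2.03 to 6.51 CPM in the other 4 LKO libraries. No marker of these lists was at 0 in all 12 libraries, and the part of these transcripts in the results was not tested except by leaving libraries out. Among the F libraries, CT2 replicate 3 had Ddx3y at 3.86 CPM, 1.37% mitochondrial counts and pancreatic acinar markers summing to 3118 CPM. These acinar markers summed to 947 CPM in F CT14 replicate 3. Fits without the libraries low in Y-linked transcripts left out the LKO and KO libraries named above and kept this F CT2 library.

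The time difference differed between LKO and KO at 7 of 20514 genes (0.0341%, adjusted p under 0.05). Of these, 6 (0.0292% of all genes) had the lower value in LKO and 1 (0.00487%), the deubiquitinase gene Usp2, the higher. At an unadjusted p under 0.05 there were 1840 genes (8.97%), and the median over all genes was -0.01. Within LKO, 174 genes (0.848%) differed between CT14 and CT2, with 91 higher and 83 lower at CT14. Within KO, 0 genes (0%) passed in edgeR, where 753 (3.67%) had an unadjusted p under 0.05 and the smallest adjusted p was 0.624. DESeq2 called 37 genes within KO and limma-trend on TPM called 1, and for the difference between LKO and KO they called 212 and 0. The authors' deposited comparisons had 32 genes at an adjusted p under 0.05 within KO, 23 higher and 9 lower at CT14. Within LKO they had 606. All 3 libraries of one time lay above all 3 of the other at 20.7% of genes in LKO and at 7.63% in KO.

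Usp2 encodes a deubiquitinase whose transcript is under E-box control. It had 14.8, 17.9 and 22.8 CPM in LKO at CT14, against 3.51, 2.18 and 4.23 CPM in LKO at CT2. In KO it had 6.13, 7.20 and 4.52 CPM at CT14 and 5.81, 9.83 and 5.87 CPM at CT2. The LKO groups did not overlap and the KO groups did, with all KO libraries between the LKO groups. The time difference was 2.48 ± 0.35 in LKO (adjusted p = 0.00311), against -0.27 ± 0.33 for KO (adjusted p = 1). LKO minus KO came to 2.75 ± 0.48 (adjusted p = 0.0415). In the controls the rise was larger, at 4.46 ± 0.39 in F and 5.24 ± 0.40 in WT.

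The promoter windows of both genes among the 7 that held an E-box are shown here, since that is the site of the factor that was deleted. Windows run from 250 bases before the RefSeq start to 50 bases after it (GRCm38.p6), and capitals mark CACGTG. The Irs2 window is chr8:11008880-11009179 on the minus strand and the Mafk window chr5:139791286-139791585 on the plus strand.
Irs2: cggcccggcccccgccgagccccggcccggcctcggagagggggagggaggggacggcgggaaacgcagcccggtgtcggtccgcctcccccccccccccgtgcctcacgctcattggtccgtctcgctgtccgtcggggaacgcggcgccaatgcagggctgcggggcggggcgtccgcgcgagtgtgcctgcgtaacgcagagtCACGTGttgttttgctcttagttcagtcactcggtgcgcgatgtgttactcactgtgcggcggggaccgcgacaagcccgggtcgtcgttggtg
Mafk: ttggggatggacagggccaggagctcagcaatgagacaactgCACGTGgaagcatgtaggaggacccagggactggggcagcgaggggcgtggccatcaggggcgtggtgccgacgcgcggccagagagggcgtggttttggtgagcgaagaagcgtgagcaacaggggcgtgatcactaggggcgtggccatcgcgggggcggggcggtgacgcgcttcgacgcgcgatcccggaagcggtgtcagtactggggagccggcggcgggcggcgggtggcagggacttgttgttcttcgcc
The E-box begins 44 bases before the start in Irs2 and 208 bases before it in Mafk. Of the 7 genes, 6 had a promoter in the table and 2 of these held CACGTG, against 9.41% of the 12842 promoters of tested genes. The E-box reads the same on both strands. No D-box (TTATGTAA or TTACGTAA), glucocorticoid element (ACANNNTGT) or CRE (TGACGTCA) was found in the 6 windows on either strand, where 0.841%, 4.77% and 2.905% of all promoters had one. These matches are descriptions of letters in a window.

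Irs2 encodes the insulin receptor substrate that carries much of the insulin signal in hepatocytes, and its hepatic transcript is known to be high in fasting. It had 18.7, 18.6 and 19.8 CPM in LKO at CT14, against 45.8, 75.7 and 42.2 CPM in LKO at CT2. KO libraries had 79.4, 25.05 and 56.2 CPM at CT14 and 10.6, 19.1 and 19.5 CPM at CT2. The order of the times was thus opposite in the knockouts, and neither pair of groups overlapped. Its time difference was -1.52 ± 0.37 in LKO (adjusted p = 0.0554), against 1.71 ± 0.37 for KO (adjusted p = 0.624). LKO minus KO came to -3.23 ± 0.52 (adjusted p = 0.0320). In the authors' deposited table the KO time difference of Irs2 was 1.70 with an adjusted p of 0.00415. F livers had -2.09 ± 0.38 (adjusted p = 0.00368) and WT livers -1.14 ± 0.37 (adjusted p = 0.127).

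Mafk, a small Maf protein that pairs with NRF2 on antioxidant response elements, had 12.3, 11.3 and 12.02 CPM in LKO at CT14 and 19.2, 24.3 and 21.0 CPM at CT2. The KO values were 21.7, 13.3 and 26.2 CPM at CT14 and 11.1, 12.7 and 14.1 CPM at CT2. LKO was lower at CT14 with no overlap (-0.86 ± 0.18, adjusted p = 0.0371), and KO had 0.69 ± 0.18 with overlapping groups. The difference was -1.55 ± 0.26 (adjusted p = 0.0320). Sgms2, which makes sphingomyelin, showed the same layout with 19.7, 16.9 and 15.1 CPM in LKO at CT14 and 34.3, 40.0 and 33.9 CPM at CT2. KO livers had 42.1, 23.7 and 40.8 CPM at CT14 and 17.7, 25.6 and 22.0 CPM at CT2. Its LKO libraries did not overlap between times and its KO libraries did, and the difference was -1.77 ± 0.30 (adjusted p = 0.0320).

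Chac1 encodes an enzyme that breaks down glutathione and is a known target of the amino acid response factor ATF4. It had 0.525, 0.348 and 0.816 CPM in LKO at CT14, against 3.91, 3.89 and 4.37 CPM in LKO at CT2. Its KO values were 4.33, 1.58 and 5.32 CPM at CT14 and 1.45, 1.32 and 2.88 CPM at CT2. LKO fell at CT14 by 2.84 ± 0.47 on the log2 scale (adjusted p = 0.0114) without overlap, KO had 0.99 ± 0.44 with overlap, and the difference was -3.84 ± 0.65 (adjusted p = 0.0320). The time difference was -2.76 ± 0.47 in F and 0.03 ± 0.44 in WT, and F minus WT, -2.79 ± 0.64, did not pass the test (adjusted p = 0.457).

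Gas7, a cytoskeletal adaptor gene, had 8.05, 7.84 and 6.14 CPM in LKO at CT14 and 25.9, 21.4 and 25.01 CPM at CT2. In KO it had 11.2, 11.6 and 3.71 CPM at CT14 and 5.36, 5.93 and 2.94 CPM at CT2. LKO was lower at CT14 in every library (-1.71 ± 0.33, adjusted p = 0.0299), KO had 0.89 ± 0.33 with overlap, and the difference was -2.61 ± 0.47 (adjusted p = 0.0476). Both controls fell as LKO did, by 1.98 ± 0.34 in F and by 1.78 ± 0.34 in WT. Gm7694, a predicted gene, had 2.49, 2.09 and 1.93 CPM in LKO at CT14 and 4.06, 9.53 and 7.13 CPM at CT2. KO libraries had 15.04, 14.9 and 17.8 CPM at CT14 and 4.73, 4.46 and 5.66 CPM at CT2. Both knockouts were without overlap and in opposite order, with a difference of -3.35 ± 0.57 (adjusted p = 0.0320), while F (-0.46 ± 0.39) and WT (0.12 ± 0.39) did not pass the test. The authors' deposited table gives Gm7694 a KO time difference of 1.68 with an adjusted p of 5.27e-11.

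**Figure D1:**
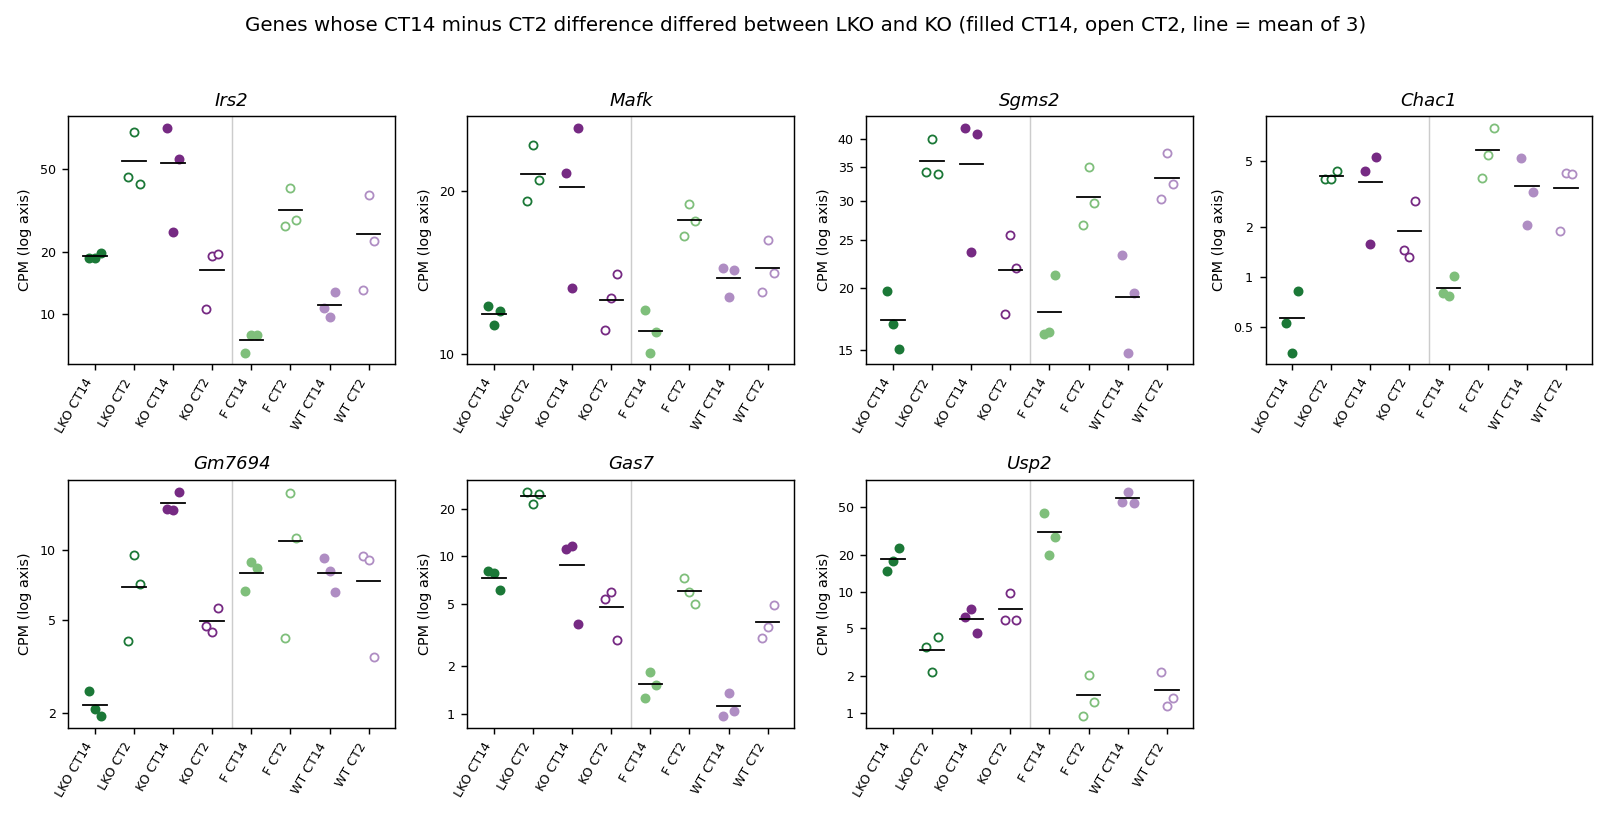
CPM on a log axis of the 7 genes in each of the 24 libraries, with LKO and KO left of the grey line and F and WT right of it. Points are libraries (filled at CT14, open at CT2) and lines are group means of 3; Usp2 is higher in all LKO libraries at CT14 than at CT2, and the other 6 are lower.

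All 7 genes had KO time differences opposite in sign to those in LKO, and none of these KO differences passed the edgeR test. Of the 7, 5 were called within LKO with the larger absolute difference there. F had the sign of LKO at 7 of 7 genes (5 called) and WT at 5 of 7 (3 called). Of the 6 genes with the lower value in LKO, KO CT14 replicate 2 was the lowest KO library at CT14 in 5. All 7 calls held without that library, when 35 genes were called in all, and 4 of the 7 held without LKO CT2 replicate 3. Leaving out any of the 10 others ended the call of at least 6 of the 7, with adjusted p-values up to 0.186 and no change of sign. Without LKO CT2 replicate 3 and KO CT2 replicate 1, both low in Ddx3y, 0 genes were called. Next by p and not called were the activin-binding hepatokine gene Fst (-2.99 ± 0.56, adjusted p = 0.0568), the forkhead factor gene Foxq1 (-3.47 ± 0.64, adjusted p = 0.0568) and Mob3b (-0.91 ± 0.17, adjusted p = 0.0568). At an adjusted p under 0.1 there were 17 genes, 3 with the higher and 14 with the lower value in LKO.

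A second reading took its genes from other libraries. In F and WT, 545 (2.66%) and 521 genes (2.54%) differed between the times, and 254 were called in both with the same sign, 135 higher and 119 lower at CT14. In F alone 1.33% of genes were higher and 1.33% lower at CT14, and in WT 1.10% were higher and 1.44% lower, while an unadjusted p under 0.05 was reached by 15.3% in F and 12.4% in WT. The fold changes behind this choice came from F and WT libraries, while the p-values rested on a spread estimated over all 24 libraries. Turned so that the direction of the controls is positive, the median time difference of the 254 genes was 0.49 in LKO (quartiles 0.21 and 0.88) and -0.01 in KO (quartiles -0.19 and 0.14). Of the 254, 225 (88.6%) had the sign of the controls in LKO, 35 of them called, and 118 (46.5%) had it in KO, 0 of them called. Over all genes, LKO had the sign of F at 64.0% and that of WT at 58.9%, and 0.848% were called in LKO. No such share of signs was set beside the KO value. The controls, on which the genes were chosen, had medians of 1.27 in F and 1.36 in WT. The difference between LKO and KO had an unadjusted p under 0.05 at 100 of the 254 (39.4%), against 8.97% of all genes, and 97 of the 100 were in the direction of the controls. In 199 of the 254 the absolute time difference was larger in LKO than in KO, and no share over all genes was set beside this. Over all genes, too, the libraries of both times were separate more often in LKO (20.7%) than in KO (7.63%). How much of the count of 199 is particular to the 254 was thus not tested. The 2 of the 254 whose difference between LKO and KO passed adjustment over all genes were Usp2 and Gas7.

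Genes high at night and genes high by day gave like values. The 135 genes higher at CT14 in the controls had a median of 0.48 in LKO and 0.01 in KO, and the 119 lower at CT14 had 0.49 and -0.08 after turning. With members of the clock lists left out, the remaining 239 had 0.48 in LKO and -0.01 in KO. Among the 108 genes called in both controls at an adjusted p under 0.01, the medians were 0.63 in LKO and -0.01 in KO.

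**Figure D2:**
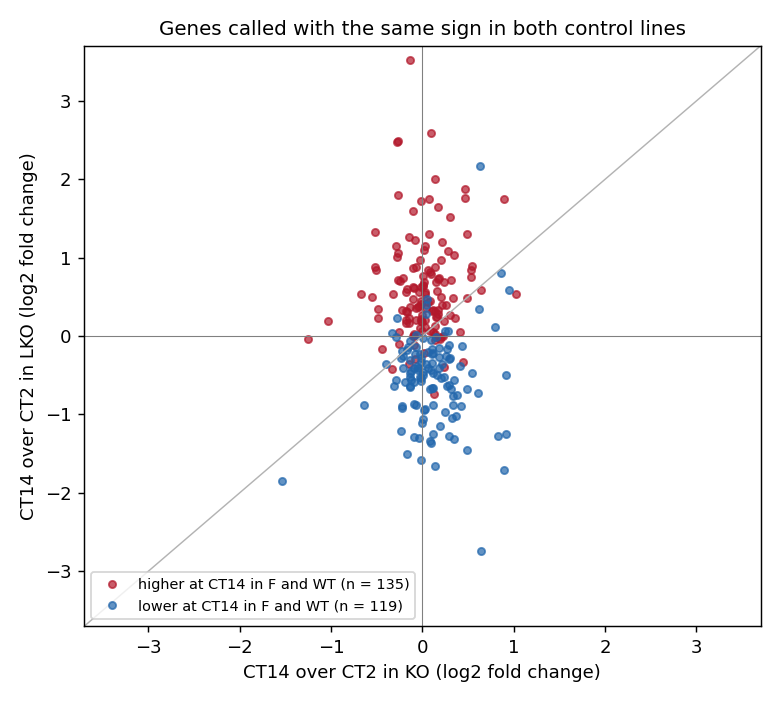
Time difference (log2 fold change of CT14 over CT2) in LKO on the vertical axis against KO on the horizontal axis for the 254 genes called with the same sign in F and WT; the grey diagonal marks equal values. Points spread up and down for LKO, with median sizes of 0.48 for genes higher and 0.49 for genes lower at CT14 in the controls, and lie closer to 0 for KO.

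The same genes were read library by library as the median centred log2 CPM of the 135 genes minus that of the 119. The 3 LKO libraries at CT14 had -0.08, 0.12 and 0.08, with a mean of 0.04 ± 0.10 (SD, n = 3), and those at CT2 had a mean of -0.97 ± 0.12. KO libraries had -0.60 ± 0.10 at CT14 and -0.55 ± 0.11 at CT2. LKO was thus higher at CT14 than at CT2 in every library, and the KO groups overlapped at a level between those of LKO. F libraries had 1.69 ± 0.32 at CT14 and -0.86 ± 0.11 at CT2, and WT libraries 2.04 ± 0.05 and -0.56 ± 0.16. At CT2 the range of LKO, -1.10 to -0.88, reached that of F, -0.97 to -0.75, while at CT14 LKO lay below every control library.

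**Figure D3:**
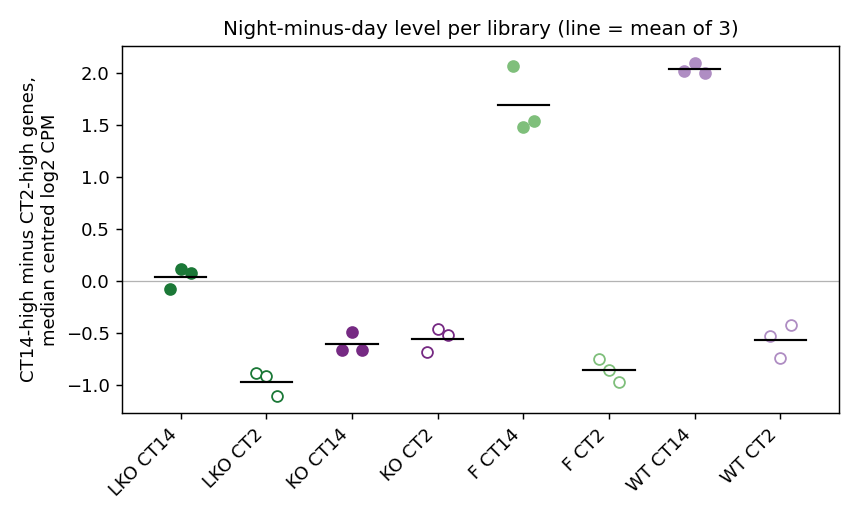
Median centred log2 CPM of the genes higher at CT14 in both controls minus that of the genes lower at CT14, for each library. Points are libraries, filled at CT14 and open at CT2, and lines are means of 3; LKO at CT14 averages 0.04 and at CT2 -0.97, while both KO groups average between -0.60 and -0.55.

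The 174 genes called within LKO were read in the other genotypes, whose libraries entered the choice through the shared filter and spread and not through the LKO fold change. Their time difference had the sign of LKO in 69 (39.7%) in KO, 164 (94.3%) in F and 158 (90.8%) in WT, where over all genes the shares were 48.6%, 64.0% and 58.9%. In F, 57 of the 174 were called with that sign, in WT 56, and in both controls 35, while 94 were called in neither. Without LKO CT14 replicates 1, 2 and 3 in turn, 44, 10 and 10 of the 174 were still called, and without LKO CT2 replicates 1, 2 and 3, 40, 17 and 42. Across all 6 of these fits, 8 of the 174 were called each time. These were St3gal5, Usp2, Ppp2r5e and Fkbp5, which rose at CT14, and Acss2, Acacb, Ngfr and Ube2h, which fell. They and the other LKO calls named below were singled out after their values were seen. The calls of Hsph1, Tsc22d3, Nfil3, Mafk, Gas7 and Ppp1r3b ended without any 1 of the 6, and those of Hlf, Plin5, Nr4a1, Gpt2 and Slc37a4 held only without LKO CT2 replicate 3.

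St3gal5, which makes the ganglioside GM3, had the smallest p in LKO. It had 77.5, 102 and 93.8 CPM in LKO at CT14, against 22.7, 31.0 and 27.0 CPM at CT2 (1.76 ± 0.18, adjusted p = 6.2e-05). The KO values were 64.5, 62.8 and 70.0 CPM at CT14 and 40.7, 54.4 and 47.8 CPM at CT2. The groups were separate in both knockouts, and the KO time difference was 0.46 ± 0.17 (adjusted p = 1). Ppp2r5e, a regulatory subunit of protein phosphatase 2A, rose in LKO by 1.15 ± 0.16, against 0.03 ± 0.16 in KO. Both had the same direction in both controls.

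Acss2 and Acacb followed another pattern. Acss2 encodes the cytosolic acetyl-CoA synthetase that feeds acetate into lipid synthesis. It had 191, 165 and 205 CPM in LKO at CT14, against 509, 487 and 753 CPM at CT2, and in KO 294, 349 and 335 CPM at CT14 and 334, 242 and 333 CPM at CT2. Its LKO libraries fell without overlap (-1.64 ± 0.24, adjusted p = 0.00311), the KO groups overlapped between them (0.11 ± 0.23), and neither F (0.07 ± 0.23) nor WT (-0.22 ± 0.23) passed the test. The difference between LKO and KO was -1.75 ± 0.33 (adjusted p = 0.0568). Acacb, the acetyl-CoA carboxylase whose malonyl-CoA restrains fatty acid entry into mitochondria, fell in LKO by 2.03 ± 0.30 (adjusted p = 0.00311). It had 0.68 ± 0.29 in F and 0.71 ± 0.29 in WT, of the opposite sign and not called. Ube2h, a ubiquitin-conjugating enzyme, likewise fell in LKO (-0.89 ± 0.12) and had -0.04 ± 0.12 in F and -0.09 ± 0.12 in WT. Ngfr, the low-affinity neurotrophin receptor, fell in LKO (-2.30 ± 0.33) and had 0.02 ± 0.32 in KO, -1.302 ± 0.32 in F (adjusted p = 0.0331) and -1.06 ± 0.32 in WT.

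Of the 174, 1 ran against both controls at a called level. Cdkn1a, the cyclin-dependent kinase inhibitor p21, had 58.5, 76.0 and 64.4 CPM in LKO at CT14, against 10.8, 7.91 and 25.4 CPM at CT2 (2.17 ± 0.37, adjusted p = 0.0139). KO livers had 30.5, 30.7 and 60.3 CPM at CT14 and 27.3, 27.6 and 23.7 CPM at CT2, separate but not called (0.63 ± 0.35). The controls were low and fell at CT14, by 1.41 ± 0.37 in F and by 1.58 ± 0.36 in WT. Its difference between LKO and KO, 1.55 ± 0.50, did not pass the test (adjusted p = 0.308).

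Among the 14 genes under E-box control, 3 (Usp2, Per2 and Hlf) rose at CT14 in LKO and 0 fell. In F 12 rose and in WT 11. Over all genes, 0.444% rose in LKO, 1.33% in F and 1.10% in WT. The list's median time difference was 0.87 in LKO and 0.11 in KO, where the medians over all genes were -0.01 and 0. All 14 values were positive in LKO and 10 had separate groups; in KO 8 were positive and 0 separate (all genes: 20.7% separate in LKO and 7.63% in KO). Per2, a period repressor that also responds to systemic signals, had 33.2, 43.0 and 41.9 CPM in LKO at CT14, against 14.998, 7.79 and 11.01 CPM at CT2. Its KO values were 14.8, 35.2 and 15.6 CPM at CT14 and 22.9, 26.0 and 30.2 CPM at CT2. LKO was separate (1.80 ± 0.35, adjusted p = 0.0299) and KO was not (-0.27 ± 0.34), with KO CT14 replicate 2 far above the other two of its group. The difference between LKO and KO was 2.07 ± 0.48 (adjusted p = 0.153). Hlf, a PAR bZIP factor, rose in LKO by 0.88 ± 0.19 (adjusted p = 0.0373) and had 0.14 ± 0.19 in KO.

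Other E-box genes did not pass the test in LKO or KO. Per3 had 0.81 ± 0.32 in LKO and 0.09 ± 0.32 in KO, against 4.58 ± 0.37 in F and 4.74 ± 0.37 in WT. The PAR bZIP genes Dbp and Tef had 1.06 ± 0.50 and 0.34 ± 0.17 in LKO and -0.27 ± 0.50 and -0.22 ± 0.17 in KO, where both rose in the controls, Dbp by 5.26 ± 0.60 in F. Per1 had 1.74 ± 0.62 in LKO and 0.89 ± 0.61 in KO, and no difference between the knockouts was detectable (0.85 ± 0.85, adjusted p = 0.893). Differences of LKO minus KO were within their error for Nr1d1 (0.06 ± 0.73), Nr1d2 (0.32 ± 0.43), Cry1 (0.12 ± 0.26), Cry2 (-0.10 ± 0.22) and Bhlhe40 (-0.03 ± 0.39). Ciart (3.66 ± 1.43, adjusted p = 0.424) and Bhlhe41 (4.65 ± 1.70, adjusted p = 0.384) were both under 1 CPM in every knockout library.

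Of 6 genes under RORE control, 0 rose and 1 fell in LKO. In F 2 rose and 3 fell, and in WT 1 rose and 3 fell. Over all genes, 0.405% fell in LKO, 1.33% in F and 1.44% in WT. The gene that fell in LKO was Nfil3, a bZIP repressor of D-box sites, with 20.1, 23.1 and 24.9 CPM in LKO at CT14 and 39.6, 35.0 and 41.5 CPM at CT2 (-0.77 ± 0.18, adjusted p = 0.0478). In KO it had 28.4, 27.8 and 29.9 CPM at CT14 and 24.6, 22.4 and 21.4 CPM at CT2, separate in the opposite order and not called (0.33 ± 0.18). Npas2, the CLOCK paralogue, fell at CT14 by 6.31 ± 0.37 in F and by 7.26 ± 0.40 in WT and had -0.15 ± 0.28 in LKO and 0.18 ± 0.28 in KO. Clock had 0.51 ± 0.49 in LKO and 0.19 ± 0.49 in KO.

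**Figure D4:**
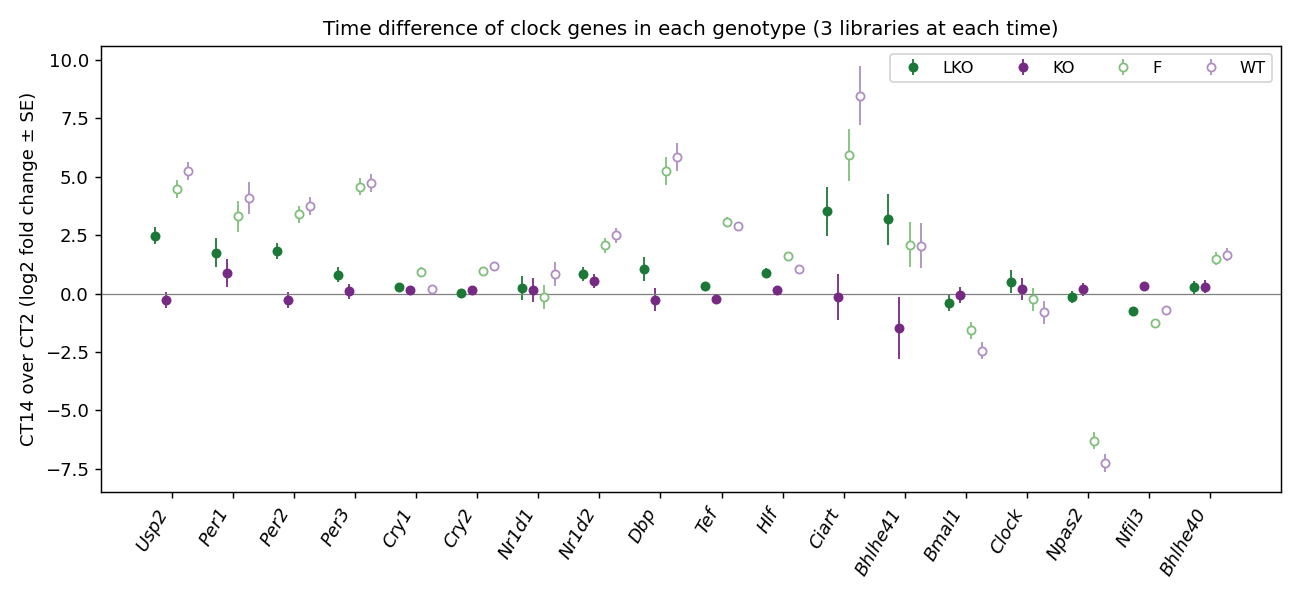
Log2 fold change of CT14 over CT2 with its standard error for 18 clock genes in LKO, KO, F and WT, each from 3 libraries at each time. F and WT reach 5.95 and 8.47 for Ciart and -6.31 and -7.26 for Npas2, while KO values lie near 0 for most genes; Usp2 and Per2 stand at 2.48 and 1.80 in LKO and at -0.27 in KO.

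The heat shock chaperones are induced by HSF1 and help other proteins fold. Of 20 measured, 1, Hsph1, rose at CT14 in LKO and 0 fell, while 5 rose in F and 7 in WT. Over all genes, 0.444% rose in LKO, 1.33% in F and 1.10% in WT. The median time difference was 0.49 in LKO and -0.07 in KO. Of the 20, 9 had all LKO libraries higher at CT14 than at CT2 and 0 had this in KO, where 20.7% and 7.63% of all genes were separate in either direction. An unadjusted p under 0.05 for the difference between LKO and KO was reached by 9 of the 20, against 8.97% of all genes. Hsph1, a large partner of HSP70, had 75.8, 97.4 and 97.6 CPM in LKO at CT14, against 33.6, 24.8 and 23.2 CPM at CT2 (1.73 ± 0.38, adjusted p = 0.0373). KO libraries had 50.5, 125 and 53.2 CPM at CT14 and 76.0, 100 and 55.5 CPM at CT2. The LKO groups were separate, and the KO groups overlapped with the highest value in CT14 replicate 2. The difference between LKO and KO was 1.75 ± 0.52 (adjusted p = 0.254).

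The Hsph1 promoter is shown because its window held both an E-box and a heat shock element, in capitals (chr5:149636287-149636586, minus strand, GRCm38.p6, 1 of 2 RefSeq starts).
Hsph1: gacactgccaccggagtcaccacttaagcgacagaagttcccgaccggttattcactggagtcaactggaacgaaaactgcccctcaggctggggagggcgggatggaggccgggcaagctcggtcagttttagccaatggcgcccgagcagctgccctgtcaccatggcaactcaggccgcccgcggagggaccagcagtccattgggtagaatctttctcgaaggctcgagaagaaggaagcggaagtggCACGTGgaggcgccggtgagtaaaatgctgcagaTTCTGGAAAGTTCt
The CACGTG begins 2 bases after the start and the TTCTGGAAAGTTC 36 bases after it. The heat shock element was searched on both strands in both phases of its inverted repeat, and stood in 0.389% of all 12842 promoters. It stood in 4 of 97 promoters of genes higher at CT14 in both controls and in 1 of 64 of the genes that rose in LKO. CACGTG stood in 16 of the 97 (16.5%), in 11 of the 64 (17.2%) and in 5 of 68 promoters of genes that fell in LKO (7.35%).

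Other chaperones had like values without passing the test. The inducible HSP70 genes Hspa1a and Hspa1b are near-identical copies whose reads cannot be safely assigned, and had 2.42 ± 0.73 and 2.59 ± 0.70 in LKO. In KO they had -0.65 ± 0.69 and 0.10 ± 0.66. Hspa1b had 61.5, 88.5 and 118 CPM in LKO at CT14, against 14.8, 11.7 and 18.2 CPM at CT2, and in KO 13.8, 113 and 26.0 CPM at CT14 and 62.5, 46.4 and 34.3 CPM at CT2. KO CT14 replicate 2 was thus within the range of LKO at CT14, and the other two of its group were below every KO library at CT2. Over the whole list this library was the highest of the 6 KO libraries in 10 of 20 genes and the lowest in 0, while KO CT2 replicate 1 was the highest in 8. The co-chaperone gene Dnaja1 had 1.26 ± 0.35 in LKO and -0.15 ± 0.35 in KO, and the constitutive Hspa8 1.15 ± 0.40 and -0.29 ± 0.39.

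The cold-inducible RNA binders are known to rise as body temperature falls. Of 6 measured, 0 rose and 1, not named here, fell at CT14 in LKO, and the list medians were -0.63 in LKO and 0.16 in KO. Cirbp, the namesake of the group, had 10.6, 6.96 and 8.93 CPM in LKO at CT14 and 13.5, 22.1 and 18.2 CPM at CT2. The KO values were 24.9, 11.1 and 14.8 CPM at CT14 and 13.1, 10.9 and 12.4 CPM at CT2. It was separate in LKO and not in KO, at -1.02 ± 0.36 and 0.48 ± 0.36, and passed no test there. The splicing factor gene Srsf5 had -1.05 ± 0.28 in LKO and 0.16 ± 0.28 in KO (difference -1.21 ± 0.40, adjusted p = 0.308).

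Of 25 glucocorticoid-responsive genes, 3 rose (Fkbp5, Tsc22d3 and Cdkn1a) and 0 fell in LKO, where 0.444% of all genes rose. The median was 0.48 in LKO and 0.60 in KO, so that the KO median was not below that of LKO. Fkbp5, a co-chaperone of the glucocorticoid receptor, had 44.9, 64.6 and 60.3 CPM in LKO at CT14, against 13.5, 15.9 and 16.7 CPM at CT2 (1.88 ± 0.28, adjusted p = 0.00311). KO livers had 30.2, 34.6 and 68.4 CPM at CT14 and 22.9, 36.9 and 36.6 CPM at CT2. LKO was separate with all KO libraries above LKO at CT2, KO overlapped (0.47 ± 0.27), and the difference was 1.42 ± 0.38 (adjusted p = 0.183). Tsc22d3, the glucocorticoid-induced leucine zipper, had 1.22 ± 0.27 in LKO (adjusted p = 0.0383) and -0.08 ± 0.27 in KO. Within this list Igfbp1, an insulin-repressed binding protein of insulin-like growth factors, had 11.8, 24.98 and 17.4 CPM in LKO at CT14 and 186, 554 and 91.8 CPM at CT2. Its KO values were 213, 24.4 and 148 CPM at CT14 and 11.5, 13.6 and 10.02 CPM at CT2. The orders were opposite and both separate, as with Irs2, but the spread was wide and the difference of -7.40 ± 1.56 did not pass (adjusted p = 0.132).

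**Figure D5:**
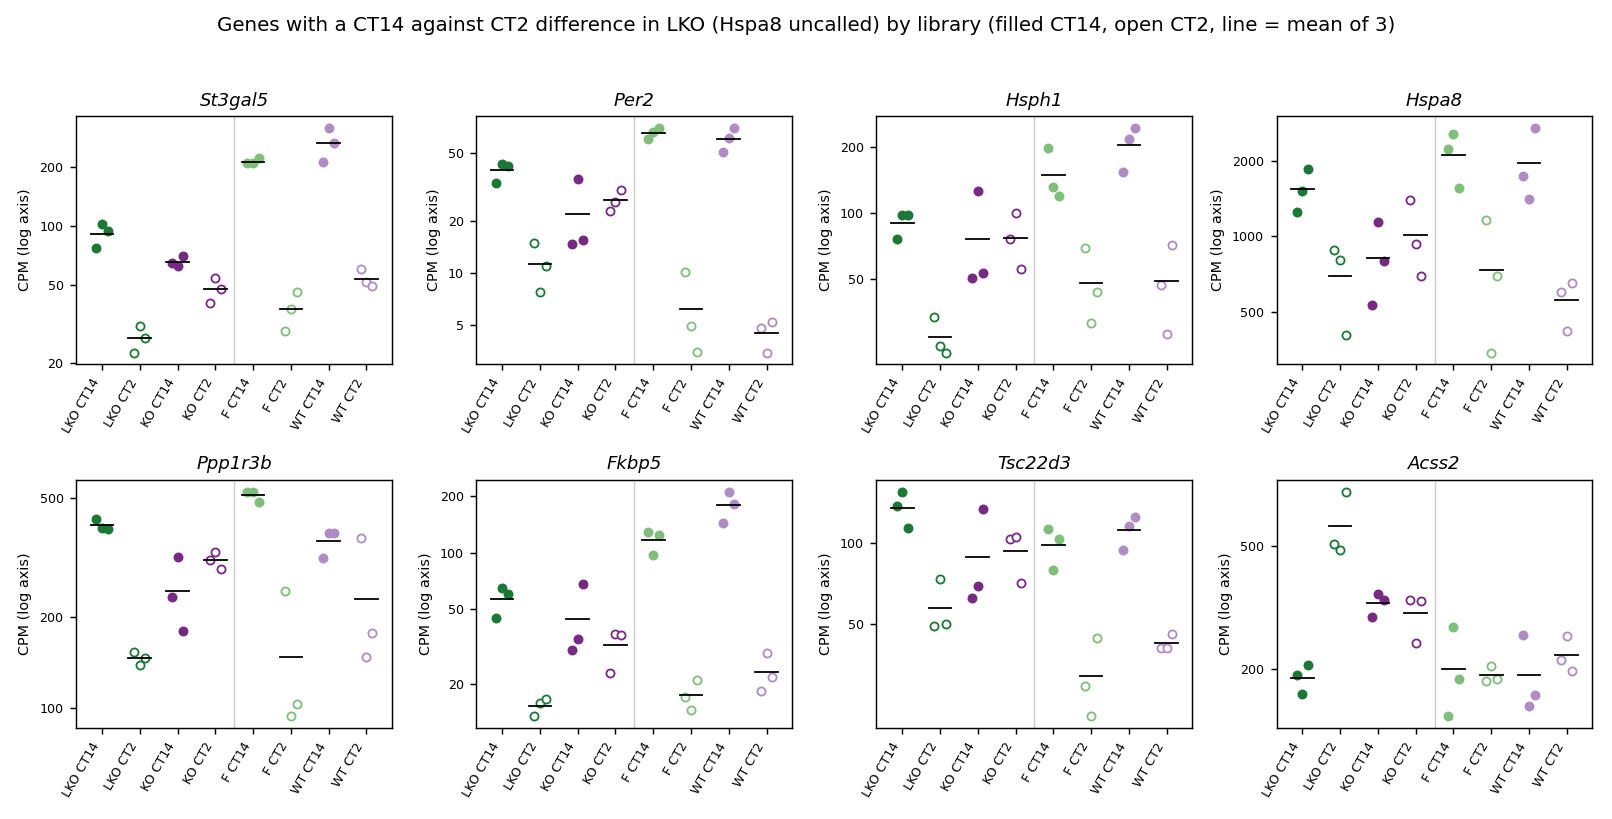
CPM on a log axis of 8 genes in each of the 24 libraries, with LKO and KO left of the grey line, filled points at CT14, open points at CT2 and lines for group means of 3. In LKO the times are separate for each gene shown; in KO they overlap for all but St3gal5, and KO CT14 replicate 2 is high for Per2 and Hsph1 (35.2 and 125 CPM).

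Of 25 insulin and feeding genes measured, 1, not named here, rose and 0 fell within LKO (0.444% and 0.405% of all genes), and Irs2 was the 1 that differed between LKO and KO. The list medians were -0.21 in LKO and -0.01 in KO. Glucose metabolism genes, of which 24 were measured, had 3 that rose in LKO, Ppp1r3b and Slc37a4 among them, and 0 that fell. In F 8 rose and 0 fell, and in WT 6 rose and 2 fell. Over all genes, 0.444% rose in LKO, 1.33% in F and 1.10% in WT. Ppp1r3b, which targets protein phosphatase to glycogen, had 426, 395 and 394 CPM in LKO at CT14, against 153, 139 and 146 CPM at CT2. The KO values were 235, 318 and 179.8 CPM at CT14 and 309.7, 330.4 and 289 CPM at CT2. It rose in LKO without overlap (1.47 ± 0.32, adjusted p = 0.0373) and had overlapping groups in KO (-0.34 ± 0.31). Slc37a4, the transporter that carries glucose 6-phosphate into the endoplasmic reticulum, had 0.88 ± 0.19 (adjusted p = 0.0373) and -0.07 ± 0.19.

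Of 23 lipogenic genes 0 rose and 2, Acacb and Acss2, fell in LKO, where 0.405% of all genes fell. The medians were -0.10 in LKO and -0.02 in KO. In F 4 rose and 0 fell, and in WT 3 rose and 1 fell, where 1.33% and 1.10% of all genes rose. LKO CT2 replicate 3 was the highest LKO library in 14 of the 23, and its part in the list's values was not tested. Of 31 genes of fatty acid oxidation and PPAR alpha, 1, Plin5, rose and 0 fell in LKO, where 0.444% of all genes rose. Plin5, which coats lipid droplets at mitochondria, had 71.3, 68.0 and 91.7 CPM in LKO at CT14 and 27.6, 25.9 and 49.5 CPM at CT2 (1.17 ± 0.27, adjusted p = 0.0474), with -0.25 ± 0.27 in KO. The list's median was 0.44 in LKO and -0.02 in KO, and 11 of 31 were separate and higher in LKO, against 20.7% of all genes separate in either direction. LKO CT14 replicate 3 was the highest LKO library in 16 of the 31 and LKO CT2 replicate 1 the lowest in 16. Of 25 cholesterol synthesis genes 0 were called, with medians of -0.24 in LKO and 0.20 in KO, and Pmvk, which phosphorylates mevalonate further, had -0.91 ± 0.22 and 0.28 ± 0.22. LKO CT2 replicate 3, one of the libraries low in Ddx3y, had the highest Pmvk and Dhcr7 of the 12 libraries at 190 and 394 CPM.

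Stress and immediate early genes had few calls. Of 20 genes of the amino acid response, 1 rose (Gpt2, 1.04 ± 0.24) and 1 fell (Chac1) in LKO. Over all genes, 0.444% rose and 0.405% fell in LKO. Gpt2 is a mitochondrial alanine aminotransferase and had 0.35 ± 0.24 in KO. Of 20 endoplasmic reticulum chaperones 0 were called, with 11 separate and higher at CT14 in LKO and 0 separate in KO (20.7% and 7.63% of all genes in either direction), and medians of 0.50 and 0.17. KO CT14 replicate 2 was the highest KO library in 17 of these 20, and its part in the KO values was not tested. Of 26 immediate early genes 0 rose and 1, the orphan receptor gene Nr4a1, fell in LKO, where 0.405% of all genes fell. It had 1.75, 1.45 and 1.201 CPM in LKO at CT14 and 5.50, 14.4 and 3.63 CPM at CT2 (-2.42 ± 0.55, adjusted p = 0.0443), against 1.299 ± 0.54 in KO. LKO CT2 replicate 2, which had the most neutrophil transcripts of the LKO libraries, was also the highest LKO library for Nr4a1, Irs2 and Igfbp1. Myc had 50.3 CPM in KO CT14 replicate 1 and at most 16.5 CPM in the other 11 libraries.

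Interferon-stimulated genes had a median of 1.29 in KO and -0.14 in LKO, and 12 of 25 had an unadjusted p under 0.05 in KO. That value moved with KO CT14 replicate 3, where the antiviral gene Rsad2 stood at 333 CPM against at most 12.4 CPM in the other 11. The 11 neutrophil markers had a median of -3.10 in LKO and 0.43 in KO, and the sums given above place this in LKO CT2 replicates 1 and 2. S100a9, for example, had 1.79, 0.348 and 0.937 CPM in LKO at CT14 and 10.01, 21.5 and 1.44 CPM at CT2. The growth hormone axis had 0 of 16 called, with medians of -0.47 and 0.22, and its transducer gene Stat5b had -0.68 ± 0.18 in LKO and 0.32 ± 0.18 in KO. Acute phase genes had 0 of 24 called in LKO, KO or their difference, with medians of -0.41 in LKO and 0.15 in KO. In F 3 fell and in WT 3, where 1.33% and 1.44% of all genes fell. KO CT2 replicate 2 was the lowest KO library in 19 of the 24, and its part in the KO median was not tested. Cell cycle genes had 1 of 25 called in LKO, Cdkn1a again, where 0.848% of all genes were called. Bile acid, xenobiotic, redox, NAD, ribosomal protein, mitochondrially encoded and sex-biased genes had 0 called in LKO, KO or their difference, as did the other cell type markers.

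LKO and KO stand on different lines, so the same contrast was formed from the controls. The time difference of F minus that of WT was called at 0 genes (0%) in edgeR, with 993 (4.84%) at an unadjusted p under 0.05 and 26 called by DESeq2. The difference between LKO and KO less that between F and WT was called at 0 genes (0%) as well, with 1242 (6.05%) at an unadjusted p under 0.05 and 49 called by DESeq2. Smallest in p for this last contrast, and not called, were Nckap5, Asap2, Eif4ebp3, Usp2 and Foxq1, and Usp2 had 3.53 ± 0.68 (adjusted p = 0.191). For the other 6 genes called between LKO and KO, the control-adjusted values were -1.05 ± 0.88 for Chac1, -0.93 ± 0.36 for Mafk, -2.27 ± 0.73 for Irs2, -1.80 ± 0.42 for Sgms2, -2.78 ± 0.78 for Gm7694 and -2.41 ± 0.66 for Gas7. Those of Chac1 and Mafk were smaller than the unadjusted -3.84 and -1.55 by more than 1.5 times. Asap2, an Arf GTPase-activating protein gene, fell in LKO (-1.28 ± 0.22, adjusted p = 0.0172), F (-1.74 ± 0.23) and WT (-2.55 ± 0.23), with 0.30 ± 0.22 in KO. Eif4ebp3, a translational repressor gene, rose in LKO (1.89 ± 0.40, adjusted p = 0.0371) and in WT (3.0003 ± 0.42, adjusted p = 0.000237), and had -0.02 ± 0.39 in KO and 0.74 ± 0.39 in F.

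Libraries of a group also differed in how closely they lay. Over the 254 genes the median SD between replicates was 0.15 in LKO at CT14 and 0.31 in LKO at CT2, and 0.23 in both KO groups, on the log2 scale. Over all genes it was 0.21 and 0.43 in LKO and 0.31 and 0.35 in KO. The spread in KO at either time was thus wider than that in LKO at CT14 and no wider than that in LKO at CT2. Its part in the calls was not tested.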

How the data were processed

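Polyadenylated liver RNA was sequenced from 24 libraries, 3 for each of 4 genotypes at 2 circadian times. Per the submitters' processing notes, fastp 0.23.2, HISAT2 2.2.1 and StringTie 1.3.1 were used, with build GRCm39. The authors deposited estimated counts per gene as whole numbers, which pile up at multiples of 4, TPM for the same libraries, and comparison tables with log2 fold changes and p-values. The counts were fitted together with edgeR 4.0.16 (R 4.3.3, quasi-likelihood F-test, 8 group means, TMM, robust), after filterByExpr with a minimum count of 10 and total of 15. That left 20514 of 56941 genes. The contrast was (CT14 minus CT2 in LKO) minus (CT14 minus CT2 in KO), and p-values were adjusted over all tested genes by Benjamini and Hochberg's method, with a threshold of 0.05. Errors of log2 fold changes are standard errors, from the fold change and its F. Per-library values are CPM. Alternatives used DESeq2 1.42.0, limma 3.58.1 on log2(TPM + 0.5), whose fold changes are understated for low genes, and other filters, scalings and libraries. Estimated counts are not whole reads, so sums and low values carry the authors' estimation besides counting error. The fitting script was run on simulated counts with known changes before use. The library index used log2 CPM with a prior count of 2. Genes were named where they had a symbol and a mean of at least 1 CPM in an LKO or KO group and were called for the contrast, among its 10 smallest p-values, among the 2 smallest of a gene list, among the 5 smallest of the line-adjusted contrast, or clock genes. The leading LKO calls, the list members called in LKO and some chaperone and marker genes were added after their values were seen. Members and gene lists were chosen with earlier results of these data known. Promoters came from RefSeq (GRCm38.p6), matched by symbol. The reference annotation was of another build than the files, so no other coordinates are given. Some genes are not reported here.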

Additional observations from a re-analysis of the deposited data

Results flagged for a closer look

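The time differences of 7 genes differed between LKO and KO by the test of that difference (edgeR, adjusted over all genes). The values, LKO time difference minus KO time difference on the log2 scale, were -3.23 for Irs2, -1.55 for Mafk, -1.77 for Sgms2, -3.84 for Chac1, -3.35 for Gm7694, 2.75 for Usp2 and -2.61 for Gas7. In each of the 7 the KO time difference had the opposite sign to that in LKO, and no KO value passed the edgeR test alone. The authors' deposited DESeq2 comparison gave the KO time difference an adjusted p of 0.00415 for Irs2 and 5.27e-11 for Gm7694.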

How the results depend on the processing

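The 7 genes called for LKO against KO became 212 with DESeq2, 12 with at least 1 CPM in 3 libraries, 0 with limma on TPM, 1 with KO and LKO libraries alone, 3 without both KO libraries with spermatid transcripts, 0 without both libraries low in Y-linked transcripts, 17 at an adjusted p under 0.1, and 0 to 35 without single libraries. Those with the larger difference in LKO, 5, became 168, 10, 0, 0, 0 and 0 under the first 6 of these settings and 0 to 20 without single libraries. The 174 LKO calls became 643 with DESeq2, 87 with no low-count filter, 60 without the libraries low in Y-linked transcripts, 361 at an adjusted p under 0.1 and 10 to 181 without single libraries. The KO count of 0 became 37 with DESeq2, 1 with limma on TPM, 4 without the libraries with spermatid transcripts and 0 to 8 without single libraries. DESeq2 called 1172 genes in F, 953 in WT, 26 for F against WT and 49 for the line-adjusted contrast, which had 3 without the spermatid libraries. Without single libraries these 4 counts ran from 246 to 593, 273 to 630, 0 to 2 and 0 to 2, and F had 967 at an adjusted p under 0.1. The cause of these changes was not tested.

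The 254 control genes became 108 at an adjusted p under 0.01, 449 with DESeq2 and 140 to 337 without single libraries. Their median in LKO was 0.63 at the stricter threshold, 0.41 with limma, 0.41 without the LKO and KO libraries low in Y-linked transcripts and 0.41 to 0.56 without single libraries, and in KO it stayed between -0.05 and 0.01 without single libraries. These alternatives for the 254, other than the stricter threshold, and those leaving out F and WT libraries, were chosen after seeing the data.

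Of 18 same-numbered pairs of LKO and KO groups, 0 had correlated deviations over 0.1. Matched across all 8 groups, 3 of the 12 LKO and KO libraries correlated best with their own number. Over all groups, 5 of 84 same-numbered pairs were over 0.1 (at most 0.31), against 7 of 168 pairs of other numbers (at most 0.19). With 3 libraries a group, these correlations cannot settle if the numbers pair the samples. With a replicate block 7 genes were called for LKO against KO and 81 within LKO.

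Among single genes, signs turned only for clock genes that were not called. Clock ran from -0.048 (without LKO CT2 replicate 3) to 0.59 without single libraries. Cry2 had 0.14 without the libraries low in Y-linked transcripts and ran from -0.23 to 0.039 (without LKO CT2 replicate 3). Nr1d1 ran from -0.21 to 0.26 and was below 0 without LKO CT2 replicate 1, KO CT14 replicate 2 or KO CT2 replicate 3. Nr1d2 ran from -0.030 (without LKO CT2 replicate 3) to 0.58. Bhlhe40 had 0.077 with limma and ran from -0.16 to 0.26, above 0 without LKO CT14 replicate 3, LKO CT2 replicate 3, KO CT14 replicate 3 or KO CT2 replicate 3. Bhlhe41 ran from -0.67 (without KO CT2 replicate 3) to 8.49. With 3 libraries a group, a difference several times its error could go uncalled. Per2 in LKO minus KO, at 2.07 ± 0.48, had an edgeR adjusted p of 0.153. An uncalled difference is thus not shown to be small.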
